A study of Mus musculus with 11 samples.

Results

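The genes described here encode secreted acute-phase and antimicrobial proteins, and they were 7 of the 27998 genes counted in every library: Lyz1, Lyz2, Pglyrp1, Lcn2, Saa3, Slpi and Wfdc17. The list was chosen by name after the level, the share of cells and the concentration in few cells of each gene had been seen in these libraries, so the values below are a description and carry no test. The data were single-cell RNA counts of 3′ ends (unique molecular identifiers, UMIs) from sorted tissue-resident macrophages (macs) of mouse brain (microglia), colon (colonic macs, CMs), liver (Kupffer cells, KCs), lung (alveolar macs, AMs) and spleen (splenic macs, SMs). Each of the 5 tissues had 1 WT library, labelled Zeb2fl/fl, and 1 Zeb2KO library, labelled Fcgr1-cre crossed to Zeb2fl/fl, and the liver had 1 further WT library, labelled Nr1h3fl/fl. The study's methods name Clec4f-cre for the liver and Itgax-cre for the lung in place of Fcgr1-cre, and give C57BL/6 mice of both sexes with littermate controls.

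All of these animals except those of the Nr1h3fl/fl library carried floxed Zeb2, a zinc-finger repressor that binds E2-box sequences, and no library was free of a floxed allele. Per the study, Fcgr1-cre also acts in B cells, T cells and conventional dendritic cells, and Clec4f-cre acts in a minor set of B cells. The study describes Zeb2KO sorts of every organ but the brain as mixtures of deleted cells and cells that kept an allele of Zeb2. Zeb2 itself checked nothing, because the 3′ end that was counted lies outside the floxed part, and its level was higher in the Zeb2KO than in the WT library of microglia (1747 against 475 CPM). Defining markers went with the labels: in WT and Zeb2KO libraries, Tmem119 was at 2428 and 1869 CPM in microglia, Clec4f at 6097 and 2106 CPM in KCs, Car4 at 526 and 757 CPM in AMs and Spic at 1622 and 1354 CPM in SMs, while CMs have no such marker of their own among those used.

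Macs numbered from 2830 to 6974 per library with median depths of 2219 to 9208.5 UMIs per cell, after clusters with clear marker sets of other cell types, 0 to 22.5% of the cells, had been set aside. Macs here are therefore the sorted cells that remained, and many of their clusters led with genes outside the marker list of their tissue, such as the haemoglobin genes of microglia cluster 1 (1327 cells) or the genes C1qa and Cd74 of lung cluster 9 (237 cells). The text below returns to 6 of them. Colon cluster 4 (762 cells) led with Hp and Mmp8 and was highest for the monocyte and neutrophil lists, colon cluster 14 (69 cells) led with the smooth muscle genes Actg2, Myh11, Tagln and Acta2, liver cluster 13 (139 cells) with Cd209a and Ccl22 and was highest for the dendritic cell list, liver cluster 14 (116 cells) is described below, spleen cluster 5 (722 cells, 23.7% of Zeb2KO SMs) led with the neutrophil genes S100a8, S100a9, Camp and Ngp, and spleen cluster 7 (351 cells) led with Fcer2a and was highest for the B cell list. Colon cluster 4 also led with Ms4a1, a gene by which the study identified CMs without Zeb2. Results for the 7 genes that changed without these 6 clusters are given both ways. Among 55 pairs of libraries, 14 to 76 barcodes were shared, at most 1.45%. Clusters with at least 9 times as large a share of the Zeb2KO as of the WT cells are called Zeb2KO clusters below. They held 92.8% of the Zeb2KO microglia, 22.3% of the CMs, 77.1% of the KCs, 91.2% of the AMs and 75.4% of the SMs. The name does not mean that all their cells had lost Zeb2. Liver cluster 5, 1 of them, led with Mmp12, Cx3cr1 and Ccr2, and the study defined KCs with Cx3cr1 and Ccr2 as cells that kept an allele. In the lung the study also describes a group of such cells from Cre-positive mice. The sort gates differed: per the study, colon and spleen cells were taken as SiglecF-negative, lung cells as SiglecF-positive and liver cells as Clec4F-positive. The study also used higher Siglecf to identify CMs and SMs without Zeb2. Whether the gates changed the shares of Zeb2KO clusters or the levels was not tested. Levels are the UMIs of a gene over all macs of a library per 1000000 UMIs (CPM). Intervals in brackets are exact 95% intervals and cover counting error only. With 1 library per tissue and genotype there is no replicate check of a difference within a tissue, and animal, library and genotype cannot be told apart.

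Macs secrete these proteins as part of the first line of defence. Lysozymes cut the peptidoglycan of bacterial walls, Pglyrp1 binds peptidoglycan, and Lcn2 takes bacterial siderophores away and so denies iron. Saa3 is a serum amyloid A protein made outside the liver parenchyma, and Slpi and Wfdc17 belong to the whey acidic protein (WAP) family, of which Slpi inhibits serine proteases of neutrophils. Several of them are stored in neutrophil granules or made by epithelium, so markers of those cells are given beside the results they touch.

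A difference was called when the level plus 1 CPM differed at least 2-fold and the higher library reached 20 CPM. Over the 5 tissues this gave 35 pairs of gene and tissue, of which 22 reached that level, 8 were called higher and 3 lower in Zeb2KO macs, and 11 were not called. Which genes were called changed with the tissue: Wfdc17 higher and Lyz2 lower in microglia, Lcn2 and Saa3 higher in CMs, Pglyrp1 higher and Slpi lower in KCs, Lcn2 and Wfdc17 higher and Slpi lower in AMs, and Pglyrp1 and Slpi higher in SMs. Over all genes that reached 20 CPM, the called share was 4.27% higher and 4.07% lower in microglia, 1.07% and 0.486% in CMs, 3.47% and 1.24% in KCs, 4.35% and 7.33% in AMs, and 2.34% and 0.873% in SMs. Since the genes were selected on these libraries, their counts of 1 and 1 of 2, 2 and 0 of 5, 1 and 1 of 6, 2 and 1 of 5, and 2 and 0 of 4 beside those shares are not evidence of their own.

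**Figure D1:**
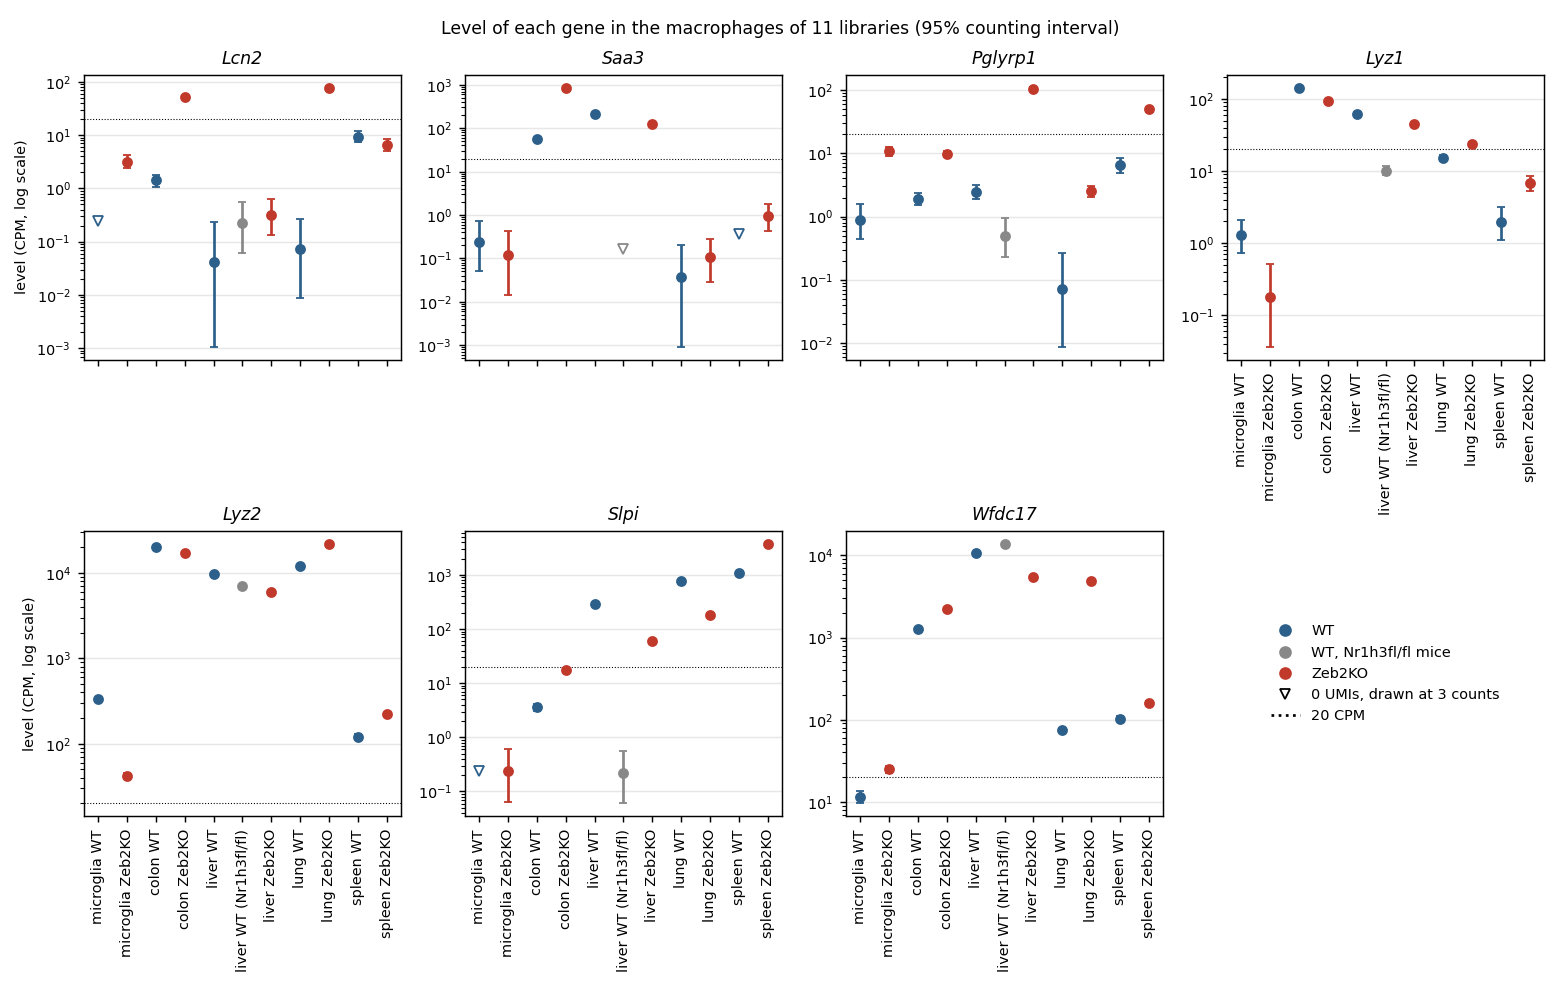
Level of each of the 7 genes in the macs of the 11 libraries, in CPM on a log axis, with exact 95% counting intervals as bars, open triangles at the level of 3 UMIs for libraries with 0, and a dotted line at 20 CPM. Lyz2 spans 41.7 to 21560 CPM, and Saa3 is above 20 CPM in both colon libraries and in the liver libraries of Zeb2fl/fl background, and under 1 CPM in all others.

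The promoters of the genes whose levels are compared most often below are shown first, as the 250 bases before the annotated start in RefSeq (GRCm38.p6), where all 7 genes were found. The gene spans given further below are those of the GENCODE annotation, whose starts can differ. The Slpi and Pglyrp1 windows therefore lie inside the spans of these genes, and the Saa3 and Lyz2 windows overlap the ends of theirs. Both strands were searched for the E2-box CACCTG, the letters TTNNGNAA of a C/EBP site, the NF-kB consensus, the STAT letters TTCNNNGAA and the PU.1 letters GAGGAAGT. Capitals mark the matches. Pglyrp1 is shown because it was higher in the Zeb2KO macs of every tissue, and Saa3 and Slpi because they were concentrated in the same few liver cells.

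Pglyrp1 (chr7:18884440-18884689, plus strand): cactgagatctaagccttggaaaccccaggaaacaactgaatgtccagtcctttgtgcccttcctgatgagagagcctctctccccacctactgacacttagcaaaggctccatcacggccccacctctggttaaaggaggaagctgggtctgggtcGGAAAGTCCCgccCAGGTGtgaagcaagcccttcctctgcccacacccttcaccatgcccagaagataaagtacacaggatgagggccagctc
Saa3 (chr7:46715677-46715926, minus strand): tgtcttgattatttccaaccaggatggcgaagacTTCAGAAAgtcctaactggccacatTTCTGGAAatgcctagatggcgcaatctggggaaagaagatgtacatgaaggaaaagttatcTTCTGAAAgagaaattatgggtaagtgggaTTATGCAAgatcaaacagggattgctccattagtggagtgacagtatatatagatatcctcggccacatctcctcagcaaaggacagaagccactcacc
Slpi (chr2:164356508-164356757, minus strand): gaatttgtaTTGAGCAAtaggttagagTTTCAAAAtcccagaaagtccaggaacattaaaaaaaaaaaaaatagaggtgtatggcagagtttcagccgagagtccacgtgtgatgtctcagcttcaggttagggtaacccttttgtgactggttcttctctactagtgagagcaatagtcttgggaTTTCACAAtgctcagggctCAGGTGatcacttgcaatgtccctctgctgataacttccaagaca

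An E2-box was present in the Pglyrp1 and Slpi windows, 2 of the 7, beside 17.2% of 32851 promoters. A C/EBP match lay in 6 of the 7, with 4 matches before Saa3 and 3 before Slpi, beside 36.8% of all promoters, and the window of Pglyrp1 was the one without it. The NF-kB consensus lay before Pglyrp1 alone, beside 7.25%. The STAT and PU.1 letters lay in none of the 7, beside 7.02% and 2.44%. Such matches describe letters and are not sites of binding.

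Both lysozyme genes lie on the minus strand 5.47 kb apart, Lyz2 at chr10:117277331-117282321 and Lyz1 at chr10:117287797-117292868 (GRCm38). Their promoters aligned at 248 bases with 200 identical (80.6%). The last 100 bases differ at 8, which are in capitals, and the pair is shown because the neighbours were used at very different levels.

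Lyz1 (chr10:117292869-117292968, minus strand): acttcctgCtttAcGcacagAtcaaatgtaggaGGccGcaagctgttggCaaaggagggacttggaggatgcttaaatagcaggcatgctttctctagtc
Lyz2 (chr10:117282273-117282372, minus strand): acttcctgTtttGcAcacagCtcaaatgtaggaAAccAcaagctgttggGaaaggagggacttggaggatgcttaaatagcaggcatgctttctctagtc

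Lyz2, the lysozyme of macs and neutrophils, was the most abundant member in WT CMs, AMs and microglia, 3 of the 5 tissues. It measured 20100 CPM in WT CMs, 11870 CPM in WT AMs and 9643 CPM in WT KCs, with 6923 CPM in the Nr1h3fl/fl KCs, and in these libraries a Lyz2 UMI was found in 100% of the cells after rounding. In WT KCs Wfdc17 was above it. WT microglia and WT SMs were far lower at 332 and 121 CPM, and the counting intervals of no neighbouring tissues in this order overlapped.

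Zeb2KO microglia had 7.97-fold less Lyz2 [7.36–8.64], at 41.7 CPM, and cells with a Lyz2 UMI were 54.7% in WT and 7.92% in Zeb2KO. With every cell thinned to 1500 UMIs, and shallower cells left out (836 of 3211 WT SMs, 540 of 2997 Zeb2KO SMs, 28 WT AMs and 0 in the other libraries), the shares were 30.1% and 2.90%. No cluster of another cell type was present in the microglia libraries to give a background share. The Zeb2KO clusters had 23.6 CPM and the remaining 235 Zeb2KO cells 256 CPM, with a UMI in 7.58% and 12.3% of cells. Of the 338 Lyz2 UMIs of those 235 cells, 246 lay in 1 cell, so 256 CPM is not the level of most of them. Over all Zeb2KO microglia, 6 of 3243 cells held 50% of the Lyz2 UMIs, 1 of them 246. Microglia cluster 5, led by the interferon-induced genes Ifit1 and Rsad2, reached 4262 CPM in 25 WT cells. The lowest cluster of WT microglia had 279 CPM. In the 224 Zeb2KO cells of cluster 5 Lyz2 was 266 CPM, most of it from the cell with 246 UMIs.

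Lyz2 went the other way in AMs and SMs, at 21560 and 221 CPM in Zeb2KO, 1.82-fold [1.81–1.82] and 1.83-fold [1.70–1.97] higher than WT. The differences were below the 2-fold threshold, and with DESeq2 size factors the log2 ratio of AMs was 1.15 in place of 0.86, which passed it. That of SMs was 0.87 and passed it as the mean over cells of the CPM per cell (1.29) and without the 1% of cells with most Lyz2 UMIs (1.85), at 38.4 CPM in WT and 142 CPM in Zeb2KO. In WT SMs 10 cells held 50% of the Lyz2 UMIs. CMs and KCs were lower in Zeb2KO, at 16833 and 5912 CPM, with log2 ratios of −0.26 and −0.71. In the colon the decrease sat in the Zeb2KO clusters, with 7703 CPM beside 19449 CPM in the other Zeb2KO CMs. Cells that should lack Lyz2 also carried it: colonic fibroblasts had 4387 and 4042 CPM in the WT and Zeb2KO libraries (median 8645 and 7275.5 UMIs), and liver B cells had 4000 and 3461 CPM with a UMI in 91.5% and 88.1% of them (median 3500 and 4108 UMIs). A share of 100% of CMs or KCs therefore says little, whereas the levels over all macs of a library were above these. Liver cluster 2, with 49.9% of Zeb2KO KCs, was an exception at 3166 CPM, under the B cells of its library. The liver B cell and endothelial clusters were no clean background, since their macrophage markers were close to those of the remaining liver cells. Mean log2 differences were −0.75 in the B cells and −0.59 and −0.13 in both endothelial clusters. They were further below in liver cluster 16 of T or NK cells (−1.77) and cluster 17 of hepatocytes (−3.94). Liver T or NK cells had 1589 CPM of Lyz2 in 10 WT cells and 1093 CPM in 12 Zeb2KO cells.

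Lyz1, the lysozyme of intestinal Paneth cells, had 141 CPM in WT CMs, 62.1 in WT KCs, 15.1 in WT AMs, 1.96 in WT SMs and 1.30 in WT microglia. The last pair did not differ beyond counting error. In the Zeb2KO libraries, Lyz1 measured 93.6, 45.1, 23.7, 6.75 and 0.177 CPM in that order, and no tissue was called. As a share of the UMIs of both lysozymes, Lyz1 was 0.127% and 0.110% in WT and Zeb2KO AMs, 0.695% and 0.553% in CMs, and 1.59% [0.914–2.58] and 2.96% [2.29–3.76] in SMs. The last value rested on 1 cell, which held 38 of the 65 Lyz1 UMIs of Zeb2KO SMs, and without the 1% of cells with most Lyz1 UMIs both SM libraries were at 0. Reads of 98 bases cannot place all of these: 7 of 303 windows in the last 400 bases of each gene (2.31%) were identical between them, and no other member shared a window with another member.

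Within the liver, the lysozyme ratio split by cluster. Lyz1 made up 0.198% of both lysozymes in WT and 0.213% in Zeb2KO cells outside liver cluster 14, but 1.98% [1.87–2.10] and 2.37% [2.22–2.53] inside it. Lyz1 in that cluster was 1274 CPM in WT and 1491 CPM in Zeb2KO cells, and the cluster held 76.8% and 79.0% of the Lyz1 UMIs of its libraries.

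Pglyrp1, which binds the peptidoglycan of bacterial walls (chr7:18871331-18890459, plus strand, GRCm38), was the one member that was higher in the Zeb2KO library of every tissue with a counting interval above 1. WT levels were low throughout: 6.49 CPM in SMs, 2.46 in KCs, 1.92 in CMs, 0.892 in microglia and 0.0729 in AMs, and the intervals of KCs, CMs and microglia overlapped between neighbours. Zeb2KO KCs reached 105 CPM (42.8-fold [33.0–56.6]) and Zeb2KO SMs 49.5 CPM (7.63-fold [5.74–10.3]), and both were called. The WT base in the liver lay in few cells: cluster 14 had 54.4 CPM and held 82.8% of the Pglyrp1 UMIs of WT KCs, and without liver clusters 13 and 14 the levels were 0.135 CPM in WT and 107 CPM in Zeb2KO KCs, with a log2 ratio of 6.57 in place of 4.94. Microglia (10.7 CPM, 12-fold [6.54–24.4]), CMs (9.85 CPM, 5.13-fold [4.03–6.6]) and AMs (2.49 CPM, 34.2-fold [9.21–287] over 2 UMIs) stayed under 20 CPM and were not considered.

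The sources of Pglyrp1 differed in spread. Liver cluster 2, led by Siglecf, Il1r2, Cd34, Ms4a1 and Ang, held 49.9% of Zeb2KO KCs and no WT KC, and gave 89.8% of the Pglyrp1 UMIs at 197 CPM, with a UMI in 46.4% of its cells [44.1–48.6]. Liver cluster 15, with 105 cells, reached 268 CPM. The Zeb2KO KCs outside the Zeb2KO clusters had 21.1 CPM in 7.46% of cells. In the spleen, cluster 5 (710 Zeb2KO cells) had 155 CPM and gave 79.5% of the UMIs. Its leading genes S100a8, S100a9, Camp and Ngp are neutrophil markers, but they came from few barcodes: 7 of the 710 cells held Camp or Ngp, and these 7 had 1075 of the 1135 S100a8 UMIs. Pglyrp1 in the cluster without them was 152 CPM. The macrophage markers of the cluster were on average 0.12 and its neutrophil markers 3.25 above the other spleen cells on the log2 scale. Those other cells include the B, T and dendritic cells set aside. On the same scale, macrophage markers were at 0.30, 0.48 and 0.44 in spleen clusters 0, 1 and 3, and at −0.23 and −0.82 in clusters 7 and 12. The part of neutrophil RNA in the Pglyrp1 result of cluster 5 was not tested. Without the cluster Pglyrp1 was 2.09 CPM in WT and 13.6 CPM in Zeb2KO SMs, under the level needed for a call. In the lung, cluster 9 (232 Zeb2KO AMs) gave 38.7% of the UMIs at 19.5 CPM. Microglia showed no such source: the 6 clusters of at least 20 cells ranged from 0 to 21.5 CPM with a median of 10.4 CPM.

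Beside these shares stand those of cells other than macs. Over all Zeb2KO KCs, 26.6% had a Pglyrp1 UMI (12.1% thinned), beside 0.738% of WT KCs (0.102% thinned). Liver B cells had 25.9% [18.8–34.2] in the Zeb2KO and 14.1% [8.82–20.9] in the WT library, and liver endothelial cells 19.4% [15.7–23.6] and 0% [0–1.68]. The share over all Zeb2KO KCs was thus not above that in B cells, while that in cluster 2 was, at median depths of 5975 and 4108 UMIs. The summed level of 6 B-cell markers was 33.7 CPM in WT and 140 CPM in Zeb2KO KCs. Most of this came from Ms4a1 (0.636 and 102 CPM), with Cd79b at 29.4 and 34.1 CPM. Per the study, KCs that lost Zeb2 gained CD20, the protein of Ms4a1, so Ms4a1 does not mark B cells alone here. The part of B-cell RNA in the Pglyrp1 result was not tested. Spleen gave 9.51% of Zeb2KO SMs beside 9.97% of splenic B cells (median 2728 and 3027 UMIs), and 30.7% [27.3–34.2] in cluster 5. In the same library T or NK cells had 17.4% [7.82–31.4], dendritic cells 24.4% [12.4–40.3] and erythroid cells 4.94% [1.36–12.2]. Their median depths were 2702, 5286 and 4596 UMIs. The WT spleen gave 0.654% of SMs beside 5.57% of B cells.

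**Figure D2:**
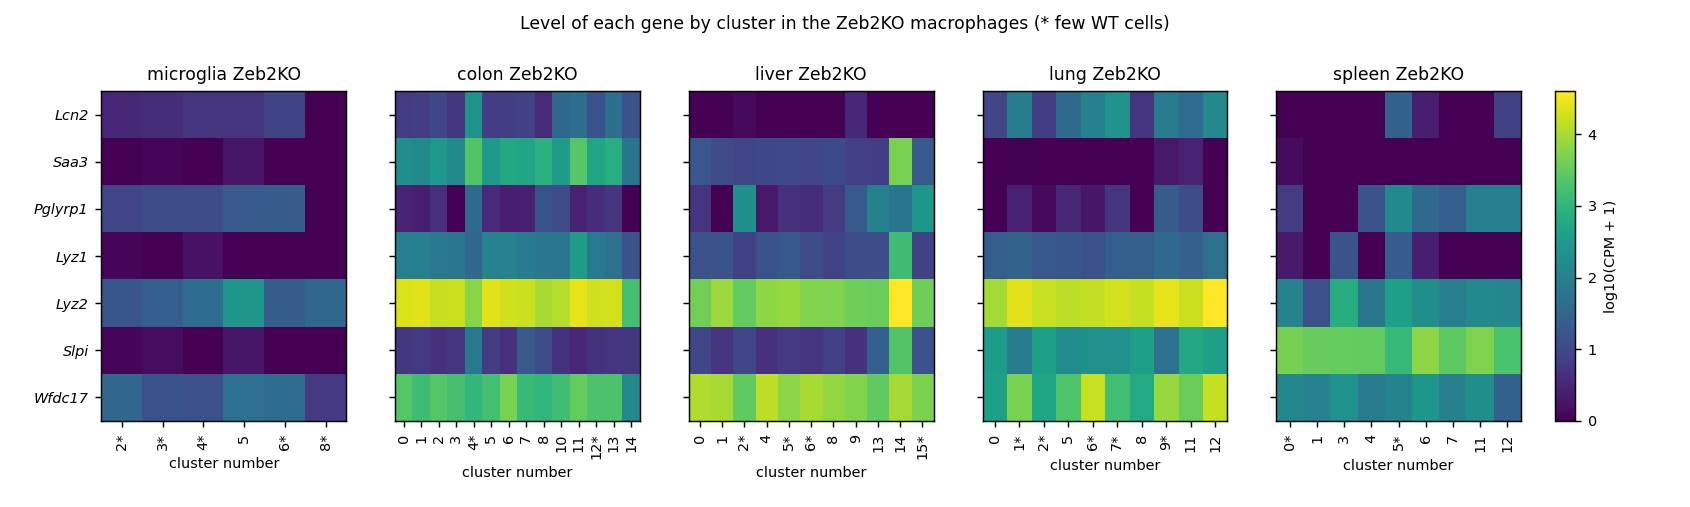
Level of each gene (rows) in the clusters (columns, by number) of the Zeb2KO macs of each tissue, coloured by log10 of the CPM plus 1, with an asterisk on Zeb2KO clusters. Pglyrp1 in the liver is highest in clusters 2 and 15 at 197 and 268 CPM, and Saa3, Slpi, Lyz1 and Lyz2 are highest in liver cluster 14.

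Lcn2 (chr2:32384633-32388252, minus strand), the siderophore-binding lipocalin, was near 0 in WT macs outside the spleen and colon. It had 0 UMIs in 2830 WT microglia (which, at 3 counts, allows a UMI in up to 0.106% of cells and sets no limit on cells that express the gene), 2 UMIs in 6974 WT AMs and 1 UMI in 3929 WT KCs, with 4 UMIs in the Nr1h3fl/fl KCs, 1.41 CPM in WT CMs and 9.31 CPM in WT SMs. The intervals of AMs, KCs and microglia overlapped. Zeb2KO AMs had 2805 UMIs or 75.2 CPM, 1033-fold more [286–8530], and Zeb2KO CMs had 51.7 CPM, 36.7-fold more [28.4–48.1]. Microglia followed far below, at 3.19 CPM from 54 UMIs, at least 13.1-fold above the limit that 3 UMIs in the WT library set. Zeb2KO KCs had 8 UMIs, and the ratio of 7.45 [0.999–331] did not leave 1.

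How Lcn2 was spread separated lung from colon. In Zeb2KO AMs 21.4% of cells had a UMI, where even spreading of the same UMIs by depth would give 35%, 284 cells held 50% of the UMIs, and the highest cell had 26. In Zeb2KO CMs 8.11% had a UMI where even spreading gives 36.6%, 17 cells held 50%, and the highest cell had 161 (2.99% thinned, beside 0.251% in WT). Fibroblasts had a UMI in 1.46% of WT and 5.47% [2.23–10.9] of Zeb2KO cells (median 8645 and 7275.5 UMIs), an interval that holds the share of the CMs. Colon cluster 4, led by Hp, Mmp8, Ms4a1 and Ltb, had 744 Zeb2KO cells and gave 80.7% of the UMIs at 216 CPM, yet 18.8% of its cells had a UMI. Its macrophage markers were on average 0.98 lower than in the other colon cells on the log2 scale, and its monocyte and neutrophil markers 1.42 and 1.22 higher. Over all CMs the 13 neutrophil markers summed to 57.7 CPM in WT and 75.1 CPM in Zeb2KO and the 7 monocyte markers to 604 and 690 CPM, with Camp, Ngp and Elane at 0 UMIs in both libraries, and their part in the result was not tested. The study identified CMs without Zeb2 by higher Zeb2, Ms4a1 and Siglecf, and Ms4a1 was among the leading genes of cluster 4. That cluster made up 18.2% of the Zeb2KO and 0.393% of the WT cells. Leaving it out may therefore also leave out deleted cells. Without cluster 4, Zeb2KO CMs had 12.3 CPM of Lcn2 beside 1.42 CPM in WT, under the level of a call. The Zeb2KO CMs outside the Zeb2KO clusters had 12.3 CPM, beside 1.42 CPM in the WT CMs outside them. The mix of clusters outside them differed, with colon cluster 1 at 17.6% of WT and 5.63% of Zeb2KO cells. Leaving out the 1% of cells with most Lcn2 UMIs brought Zeb2KO CMs to 15.4 CPM, under the 20 CPM of a call, and WT CMs to 0.0702 CPM, so that the log2 ratio was 3.94 in place of 4.45 and the level alone ended the call. Zeb2KO AMs stayed at 60.7 CPM.

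In the lung, clusters 1 (2867 cells, led by Krt18, Krt8, S100a9 and S100a8), 7 and 6 had 83.6, 219 and 102 CPM of Lcn2 and gave 58.8%, 17.8% and 12.6% of the UMIs. A Lcn2 UMI was present in 46.9% of cluster 7 [42.1–51.7] at a median depth of 4896 UMIs, and in 11.3% of the 549 Zeb2KO AMs outside the Zeb2KO clusters at 5181 UMIs. Lung cluster 13, set aside as lymphocytes, led with the T and NK cell genes Ccl5, Gzma and Nkg7 and the B cell genes Cd79a and Cd79b. Of its 18 Zeb2KO cells, 22.2% [6.41–47.6] had a Lcn2 UMI at 4610.5 UMIs and of its 14 WT cells 0, so the share over all Zeb2KO AMs was not above that of lymphocytes at this number of cells. Neutrophil markers moved with Lcn2 in AMs: 13 of them summed to 59.5 CPM in WT and 23891 CPM in Zeb2KO, almost all from S100a8 (22.9 and 14194 CPM) and S100a9 (0.0364 and 9361 CPM). Of the rest of the list, Cxcr2 (2.70 and 178 CPM), Csf3r (12 and 96 CPM) and the granule genes Mmp8 (21.8 and 58.2 CPM) and Ltf (0.109 and 3.57 CPM) were also higher in Zeb2KO, whereas the granule genes Camp, Ngp, Mmp9 and Elane were at 0 UMIs in both AM libraries. Ly6g was at 0 and 0.322 CPM, Retnlg at 0 and 0.134 CPM and Mpo at 0.0364 and 0.0537 CPM. Their part in the Lcn2 result was not tested.

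Splenic Lcn2 was that of a few barcodes with neutrophil granule RNA. In WT SMs, 72 of 76 Lcn2 UMIs lay in 1 barcode that also held 1376 S100a8, 271 Camp and 140 Ngp UMIs. In Zeb2KO SMs, 61 of 64 lay in barcodes with Camp or Ngp, the highest with 33 Lcn2, 556 S100a8 and 75 Camp UMIs. Without barcodes that held Camp or Ngp, Lcn2 was 0.494 CPM in WT and 0.315 CPM in Zeb2KO SMs. The same barcodes held 27 of the 53 Pglyrp1 UMIs of WT SMs but 10 of 477 in Zeb2KO SMs, and Pglyrp1 without them was 3.21 and 49.0 CPM.

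**Figure D3:**
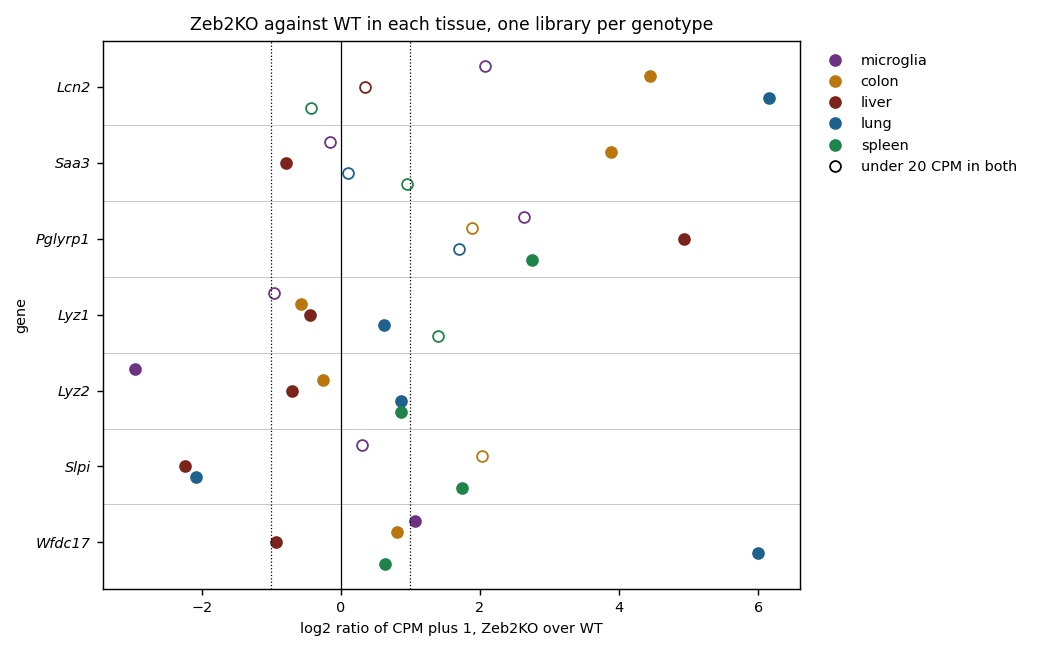
Log2 ratio of the Zeb2KO to the WT level plus 1 CPM for each gene and tissue, as 1 point per tissue, open where neither library reached 20 CPM, with dotted lines at the 2-fold threshold. Pglyrp1 is above 0 in all 5 tissues, from 1.70 in AMs to 4.94 in KCs, whereas Slpi is at −2.24 in KCs, −2.09 in AMs and 1.74 in SMs.

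Saa3 (chr7:46711998-46715700, minus strand), the serum amyloid A gene that macs and other cells outside the hepatocytes express, was seen in colon and liver. WT KCs had 213 CPM, WT CMs 56.7 CPM, WT microglia 0.243 CPM from 3 UMIs, and WT AMs 1 UMI. The WT SMs and the Nr1h3fl/fl KCs had 0 UMIs, which at 3 counts allows a UMI in up to 0.0934% and 0.0866% of cells at this depth. Zeb2KO CMs had 857 CPM, 15.1-fold above WT [14.5–15.7], and Zeb2KO KCs had 123 CPM, 1.73-fold below [1.65–1.81] and not called. Without the 1% of KCs with most Saa3 UMIs the levels were 29.8 and 8.47 CPM, which passed the threshold with a log2 ratio of −1.70, while without liver clusters 13 and 14 it was −0.44. Zeb2KO AMs, microglia and SMs had 4, 2 and 9 UMIs.

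Saa3 in the colon came from clusters of both kinds. Colon clusters 4 and 11 had 2229 and 2441 CPM in Zeb2KO CMs and gave 50.3% and 19.4% of the UMIs. Cluster 11, led by Il22ra2, Marco and Cxcl13, was also the highest cluster of WT CMs, with 1142 CPM in 60 cells. Outside the Zeb2KO clusters, Zeb2KO CMs still had 529 CPM, beside 56.8 CPM in WT, and without cluster 4 the call was kept at a log2 ratio of 3.19 in place of 3.89. Cells with a UMI were 8.34% in WT and 64.6% in Zeb2KO CMs, 2.12% and 21.7% when thinned. The UMIs lay in few of them: 7 of 4378 WT CMs and 37 of 3885 Zeb2KO CMs held 50%, and the highest cells had 395 and 1554. Without the 1% of cells with most Saa3 UMIs the log2 ratio was 5.40 in place of 3.89, so the size of the fold depended on few cells. Fibroblasts of the same libraries had 5.84% [2.55–11.2] and 44.5% [35.7–53.6] at 7.03 and 97.9 CPM (median 8645 and 7275.5 UMIs), and 90.5% of 21 Zeb2KO plasma cells had a UMI at 150 CPM. The share of CMs with a UMI was thus higher in Zeb2KO together with that of other cell types, while the level of 857 CPM was above theirs.

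**Figure D4:**
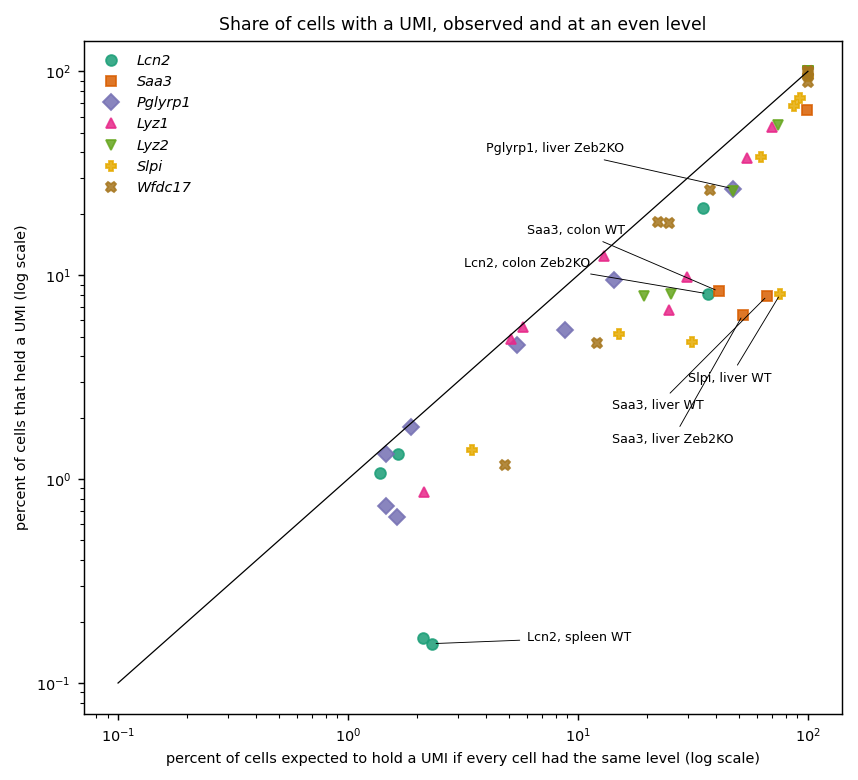
Share of macs with at least 1 UMI of each gene against the share that even spreading of the same UMIs by depth would give, both in percent on log axes, with 1 point per gene and library of at least 50 UMIs and the line of equality. Of 56 points, 48 lie under the line, among them Saa3 and Slpi in WT KCs at 7.94% against 66.7% and 8.09% against 75.9%.

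In the liver, Saa3, Slpi and Lyz1 were the genes of 1 small cluster. Liver cluster 14 was led by Alox15, Prg4, Fn1, Padi4 and Thbs1, and it was singled out after its values had been seen. It held 68 of 3929 WT KCs (1.73% [1.35–2.19]), 47 of 3865 Zeb2KO KCs (1.22% [0.895–1.61]) and 1 of 3466 Nr1h3fl/fl KCs. Its WT cells had 466 CPM of Clec4f, the KC lectin, beside 6316 CPM in the other WT KCs, 81.6 CPM of Gata6 beside 0.0441, and 919 CPM of Icam2 beside 25.3. The KC markers Vsig4 (689 beside 3394 CPM) and Cd5l (1470 beside 5399 CPM) were lower too, whereas Timd4 (560 beside 562 CPM) and the macrophage marker Adgre1 (701 beside 779 CPM) were close, and in the Zeb2KO library Timd4 was higher in the cluster (567 beside 122 CPM). With none of the KC markers among its leading genes, it was left unnamed. The study cites GATA6 as a transcription factor of peritoneal macs, and whether the cluster held such macs was not tested. Saa3 was 5395 and 4812 CPM in its WT and Zeb2KO cells, and the cluster held 94.6% and 93.3% of the Saa3 UMIs of the libraries. Slpi was 7421 and 2246 CPM there, with 95.9% and 88.9% of the UMIs, and Lyz2 63141 and 61274 CPM, with 24.5% and 24.8%.

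Outside the cluster these genes were low in all 3 liver libraries. Saa3 was 11.9 CPM in WT, 8.50 in Zeb2KO and 0 in Nr1h3fl/fl KCs, and Slpi 12.3, 6.84 and 0.221 CPM. A Saa3 UMI was present in 6.48% of WT and 5.42% of Zeb2KO KCs outside the cluster. Endothelial cells had 6.42% in WT (median 6519 UMIs) and 7.04% in Zeb2KO (median 6952.5 UMIs). As given for Lyz2, the endothelial clusters were no clean background, and whether this Saa3 was background was not tested. Lyz1 was 15, 9.72 and 10.1 CPM outside the cluster. In the Nr1h3fl/fl library, with 1 cell of the cluster, 0 of 58 endothelial cells had a Saa3 UMI [0–6.16%].

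The comparisons with the second WT liver library changed with that cluster. Against the Zeb2fl/fl WT library it was lower in Saa3 (at least 1290-fold), Slpi (1313-fold [513–4820]) and Lyz1 (6.16-fold [5.28–7.22]), 3 of the 5 members at 20 CPM, beside a called share of 0.811% lower and 0.505% higher over all genes, with no member called higher. Zeb2KO KCs set against it were called higher in Saa3, Pglyrp1, Lyz1 and Slpi and lower in Wfdc17, beside 4.26% and 4.07% of all genes. Both liver comparisons share the Nr1h3fl/fl library with each other. Without liver clusters 13 and 14 no member was called between the WT libraries, and Pglyrp1 alone was called higher in the Zeb2KO KCs. For Saa3 and Slpi it was the level that ended the call, since the log2 ratios were still −3.70 and −3.46 between the WT libraries and 3.26 and 2.61 in Zeb2KO KCs, all under 20 CPM. The ratio of Lyz1 did not last, at −0.54 between the WT libraries and −0.03 in place of 2.06 in Zeb2KO KCs.

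**Figure D5:**
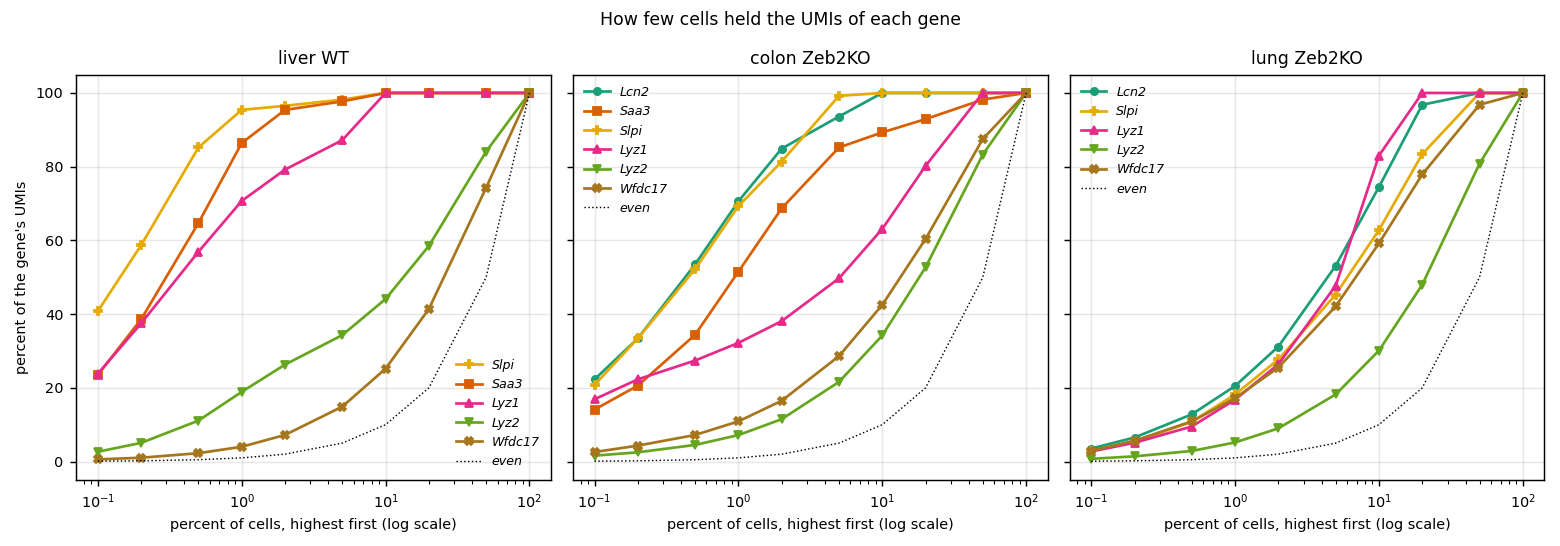
Cumulative share of a gene's UMIs, in percent, against the percent of macs, ranked from most to fewest UMIs of that gene, on a log axis, in WT KCs, Zeb2KO CMs and Zeb2KO AMs, with a dotted line for even spreading. In WT KCs the top 1% of cells hold 95.4% of the Slpi and 86.4% of the Saa3 UMIs but 4.01% of the Wfdc17 UMIs, and in Zeb2KO AMs they hold 20.5% of the Lcn2 UMIs.

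Slpi (chr2:164354070-164389095, minus strand), the secretory leukocyte protease inhibitor, was the one member called in both directions over the 5 pairs of WT and Zeb2KO libraries, leaving the Nr1h3fl/fl library aside. WT levels were 1093 CPM in SMs, 770 in AMs, 290 in KCs and 3.58 in CMs, and 0 UMIs in microglia. Zeb2KO SMs had 3640 CPM, 3.33-fold more [3.25–3.41], whereas Zeb2KO AMs had 180 CPM, 4.28-fold less [4.16–4.40], and Zeb2KO KCs had 60.4 CPM, 4.80-fold less [4.54–5.08]. CMs stayed under 20 CPM at 17.8 CPM, 4.95-fold above WT [4.15–5.94]. The difference between tissues was not tested.

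Slpi was spread over many cells in spleen and lung and lay in few in the liver. In WT and Zeb2KO SMs 67.8% and 95.1% of cells had a UMI (60.3% and 90.3% thinned), and in AMs 74.3% and 37.8% (52.1% and 18.2% thinned). Splenic B cells had 22.6% and 68.7% at 113 and 466 CPM (median 2066.5 and 3027 UMIs), below the macs in both. Spleen cluster 8, with erythroid genes, had 73.0% and 96.3% at 964 and 2405 CPM (median 2486.5 and 4596 UMIs). It was no clean background, since its macrophage markers were 0.38 below the other spleen cells on the log2 scale, beside 3.11 below in the B cells. The lung lymphocyte cluster had Slpi in 35.7% and 16.7% of 14 and 18 cells (median 2690 and 4610.5 UMIs). The highest spleen clusters were 6 with 6220 CPM and 0 with 4588 CPM in Zeb2KO SMs, and the lowest was cluster 5, the source of Pglyrp1, with 1227 CPM. Zeb2KO AMs outside the Zeb2KO clusters had 310 CPM, between 168 CPM inside them and 773 CPM in the WT AMs outside them. The mix of clusters outside them differed, with lung cluster 0 at 60.2% of WT and 0.685% of Zeb2KO cells. In WT KCs 6 cells held 50% of the Slpi UMIs, 1 of them 937. The KC call was lost without liver clusters 13 and 14, at a log2 ratio of −0.85 in place of −2.24, and also without the 1% of cells with most Slpi UMIs, where both libraries were under 20 CPM (13.7 and 5.72 CPM, log2 ratio −1.13). In Zeb2KO CMs, 77.0% of Slpi UMIs came from colon cluster 4, as for Lcn2 and Pglyrp1 (75.8%). Without that cluster the CM log2 ratios were 0.40 for Slpi, in place of 2.03, and 0.46 for Pglyrp1, in place of 1.89, with Pglyrp1 at 1.88 and 2.95 CPM.

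Wfdc17 (chr11:83703991-83706268, plus strand), a small WAP-domain protein expressed by macs, was highest in the liver among WT libraries. It measured 10625 CPM in WT and 13641 CPM in Nr1h3fl/fl KCs, 1274 in WT CMs, 102 in WT SMs, 74.6 in WT AMs and 11.4 in WT microglia. Zeb2KO AMs reached 4843 CPM, 64.9-fold above WT [62.2–67.9], and cells with a UMI were 18.0% in WT and 88.4% in Zeb2KO (7.92% and 70.8% thinned). Lung cluster 6, led by Krt6b, Inhba and Mmp12, had 16116 CPM and gave 31.0% of the UMIs from 7.17% of the cells, and cluster 1 had 4785 CPM. The 549 Zeb2KO AMs outside the Zeb2KO clusters had 2589 CPM, beside 73.6 CPM in the WT AMs outside them, whose mix of clusters differed. The 18 cells of the lymphocyte cluster had 1010 CPM with a UMI in 55.6% [30.8–78.5].

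Elsewhere Wfdc17 changed less. Zeb2KO KCs had 5536 CPM, 1.92-fold less [1.91–1.93], with 3039 CPM in liver cluster 2 and 8066 CPM in the KCs outside the Zeb2KO clusters. CMs had 2213 CPM (1.74-fold more [1.72–1.76]), SMs 159 CPM (1.55-fold more [1.42–1.69]) and microglia 25 CPM (2.2-fold more [1.81–2.68]), and the last was called. Without the 1% of cells with most Wfdc17 UMIs the microglia were at 0.41 and 7.94 CPM, under the level of a call. In WT microglia 4 cells held 50% of 140 UMIs, and 1.17% of cells had a UMI, beside 4.66% in Zeb2KO (0.424% and 1.82% thinned). Liver B cells carried 5821 and 4174 CPM in the WT and Zeb2KO libraries, so a share of 100% of KCs does not separate them from background, though the level in WT KCs was above it. Barcodes of other liver cells came close to or passed the KCs, with 10233 CPM in endothelial cells and 10031 CPM in hepatocytes of the WT library, and 6580 and 13689 CPM in hepatocytes of the Zeb2KO and Nr1h3fl/fl libraries. Liver cluster 12, with 160 hepatocyte barcodes, had macrophage markers as high as the remaining liver cells, so these levels cannot serve as a background for KCs.

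The genes that share the tissue pattern of a member were those with the highest Pearson r of log2 levels over the 11 libraries, among 8041 genes. The points share tissues and depth, so r is a description. For Wfdc17 it was Wfdc18, another WAP-domain gene (r = 0.967), which was at 57.5 CPM in its highest library. For Lyz2 it was Dab2 (r = 0.986) and Litaf (r = 0.986). Saa3 was most like Thbs1 (r = 0.957) and Retnla (r = 0.902), genes that also lead liver cluster 14. Pglyrp1 was most like Serpinb6b (r = 0.915), Lcn2 most like Mxd1 (r = 0.868), Slpi most like Gm5611 (r = 0.930) and Lyz1 most like Mrpl23 (r = 0.946).

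Within a library, some members met in the same cells more often than the product of their shares. In WT KCs 1.65% of cells had UMIs of both Saa3 and Slpi where the product is 0.643%, 2.57 times more. In Zeb2KO CMs 1.16% had both Lcn2 and Slpi where the product is 0.415%, and 6.31% had both Lcn2 and Saa3 where it is 5.24%. Such shares also depend on depth, and no correlation over cells is read from them.

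Of 89 other genes of the same pathways, in 6 lists, 31 to 34 reached 20 CPM in a tissue. Zeb2KO microglia had 7 of 31 called higher and 3 lower, beside 4.27% and 4.07% of all genes, with a median log2 ratio of 0.34 beside −0.09 over all genes at that level. Zeb2KO AMs had 7 and 5 of 31, beside 4.35% and 7.33%, with −0.21 beside −0.31. CMs had 3 and 1 of 34, beside 1.07% and 0.486% (median 0.20 beside 0.05), KCs had 2 and 1 of 33, beside 3.47% and 1.24% (−0.04 beside 0.02), and SMs had 1 and 1 of 33, beside 2.34% and 0.873% (−0.14 beside −0.02). Cybb, a subunit of the phagocyte oxidase, was higher in microglia (3.97 and 228 CPM in WT and Zeb2KO), where Hfe (167 and 59 CPM), an iron regulator, and the factor Cebpa (666 and 318 CPM) were lower. C3, the central complement component, was higher in microglia (0.162 and 42.9 CPM in WT and Zeb2KO), in CMs (22.9 and 69.6 CPM) and in AMs (30.3 and 151 CPM). Hp, haptoglobin, and Mmp8, neutrophil collagenase, were higher in CMs (0.855 and 26.4 CPM, 1.60 and 25.1 CPM), where Mmp9, a gelatinase, was lower (32.4 and 6.73 CPM), and Ang, angiogenin, in KCs (3.27 and 52.9 CPM) and SMs (1.10 and 23.2 CPM). Camp, a granule gene, was at 34.8 and 16.2 CPM in WT and Zeb2KO SMs, where 1 WT barcode held 271 of 284 UMIs and 1 Zeb2KO barcode 75 of 156, so that its call rested on single cells. Nfkbiz, a nuclear NF-kB regulator, was higher in KCs (27.5 and 62.6 CPM). Among the inducers of acute-phase genes, Tnf was higher in microglia (51.5 and 565 CPM) and lower in AMs (264 and 61.1 CPM), where Il6 (28.4 and 8.24 CPM) and the factor Cebpb (1288 and 318 CPM) were lower too. Slc22a17, a receptor for Lcn2, was lower in microglia (24.2 and 10.7 CPM) and KCs (20.8 and 5.49 CPM). In WT KCs Cebpb was lower in the Zeb2fl/fl than in the Nr1h3fl/fl library (90.6 and 587 CPM) and Retnla was higher (30.5 and 4.80 CPM).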

How the data were processed

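Tissue macs of 5 organs were sorted by the study and run on 10x 3′ chemistry with UMIs, and the authors aligned reads to mm10 with Cell Ranger (submitters' processing notes). The deposited files hold UMI counts, not normalized, for 27998 genes in each barcode. From these counts, barcodes beyond 3 median absolute deviations were removed, cells of each tissue were clustered together (scanpy 1.11.5: 2000 variable genes, 30 components, resolution 0.8) and clusters were set aside where the mean log2 ratio of another cell type's markers was at least 2, or at least 1 with 2 of them among the first 10 genes, at least 3 of them were detected, macrophage markers were under the other cells' and the cluster made up under 25% of each library. Clusters short of this rule were kept. Scrublet marked at most 0.217% of cells in any library, fewer than is plausible, so no doublets were removed. Raw totals were 11133411 to 47400786 UMIs per library. UMIs of all macs of a library were summed per gene and scaled to CPM. Intervals are exact Poisson for levels, Clopper-Pearson for shares and conditional binomial for ratios (scipy 1.17.1). No test was possible within a tissue, with 1 library per group, and none over the 5 WT and Zeb2KO pairs was made, since the genes were chosen on these contrasts. A fold against 0 UMIs was taken against 3 counts. Alternatives used TMM factors (edgeR 4.0.16) and DESeq2 1.42.0 size factors. The pipeline was tested on simulated data. The members, gene lists and named clusters were chosen with earlier results of these data known. Genes named from the pathway lists were, per tissue, up to 3 called genes with the highest and up to 3 with the lowest log2 ratio (those of Zeb2KO KCs against the Nr1h3fl/fl library are not printed), and per member the 3 genes of highest r were found, of which the first or first 2 are printed. Acod1, Expi, Pi3 and Cebpd were not analysed here.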

Additional observations from a re-analysis of the deposited data

Results flagged for a closer look

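Slpi differed between tissues in direction: the log2 ratio of Zeb2KO to WT was −2.24 in KCs and −2.09 in AMs but 1.74 in SMs, with 1 library on each side. In KCs it was −0.85 and not called without liver clusters 13 and 14. The difference was not tested.

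Cells set aside as other types carried members above the level of the macs beside them. Colon epithelial cells, 12 in each library, had Pglyrp1 at 748 CPM in WT and 700 CPM in Zeb2KO, beside 1.92 and 9.85 CPM in CMs. Colonic endothelial cells had Lcn2 at 799 CPM in WT, with a UMI in 62.5% of 16 cells [35.4–84.8], and 1249 CPM in Zeb2KO, in 66.7% of 24 cells [44.7–84.4]. Colonic plasma cells had Slpi at 443 CPM in 14 WT cells and 203 CPM in 21 Zeb2KO cells.

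Pglyrp1 was also present in lymphocytes of liver and lung. It measured 38.9 CPM in 142 B cells and 109 CPM in 10 T or NK cells of the WT liver, 57.9 CPM in 34 B cells of the Nr1h3fl/fl liver and 148 CPM in 18 cells of a lung cluster with both B cell and T or NK cell genes in Zeb2KO, of which 4 had a UMI, while the 14 WT cells of that cluster had 0 UMIs.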

How the results depend on the processing

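Of 833 log2 ratios recomputed under an alternative, 685 stayed within the counting interval of the reported value, 147 left it and 1 called ratio changed sign, and of 238 counts of called members 222 stayed within 1.5 times. In microglia the count called higher, 1, became 2 with a floor of 5 CPM, 0 with a floor of 50 CPM, 3 with no floor, 0 with 5 CPM added and 0 without the 1% of cells with most UMIs. In CMs the count called higher, 2, became 4 with a floor of 5 CPM, 4 with no floor 1 without the top 1% of cells and 1 without colon cluster 4. In SMs the count higher, 2, became 1 with a floor of 50 CPM and 1 without spleen cluster 5. Without the top 1% of cells, the 1 gene lower in KCs was Saa3 in place of Slpi, 3 lower between the WT liver libraries became 1, and 4 higher in Zeb2KO KCs against the Nr1h3fl/fl library became 1. Without colon cluster 14 and liver clusters 13 and 14, an alternative chosen after seeing the data like those of spleen clusters 5 and 7 and colon cluster 4, the count lower in KCs went from 1 to 0, the count lower between WT liver libraries from 3 to 0, the count higher against the Nr1h3fl/fl library from 4 to 1, and Lyz1 in that comparison changed sign from 2.06 to −0.03. Lcn2 in SMs, not called at −0.43, was 0.95 as the mean over cells of the CPM per cell. No paired analysis was possible because, within a tissue, each group has 1 library, and for the same reason no replicate could be left out. The 5 tissues form pairs of WT and Zeb2KO libraries, over which no fit was made because the members were chosen on these contrasts. Depth limits genes under 1 CPM, where 0 UMIs allow 0.0694 to 0.368 CPM.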
